A study of Danio rerio with 19 samples.

Results

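Endothelial cells line blood and lymphatic vessels, and 33 genes that are active in them, or in the blood and vessel progenitors they share an origin with, were followed through RNA-seq libraries of sorted zebrafish cells. The genes were matched by name, from a list drawn up with earlier results of these data known, and make up 33 of the 31953 genes in the deposited table. All 33 were found there, 32 by exact name and hhex by its identifier. They hold 4 Ets factors (fli1a, fli1b, erg, etv2), 2 Sox factors (sox7, sox18), 5 factors of blood and vessel progenitors (tal1, lmo2, gata2a, gata2b, hhex), 4 Vegf receptors (kdrl, kdr, flt1, flt4), 2 Tie receptors (tie1, tek), 5 junction and surface genes (cdh5, pecam1, esama, clec14a, egfl7), 4 lymphatic, venous or scavenger genes (lyve1b, stab1, stab2, mrc1a) and 7 others (she, dusp5, rasip1, myct1a, ramp2, aqp1a.1, vsg1).

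The study measured gene expression in pharyngeal arches, the embryonic structures whose neural crest cells form the facial skeleton, in 19 libraries of cells sorted by fluorescent reporters. The hand2-sorted (2 libraries) and dlx5a-sorted (1 library) cells were wild-type arch cells labelled by hand2 or dlx5a together with sox10. The edn1 mutant cells (edn1-/-, 2 libraries) and the all-arch cells (wild type, 3 libraries) were positive for both fli1a:GFP and sox10:DsRed. The fli1a-only cells (fli1a:GFP positive and sox10:DsRed negative, 3 libraries) and the sox10-only cells (the reverse, 3 libraries) were wild type and served as sort controls. The jag1b mutant (jag1b-/-) and jag1b wild-type (jag1b+/+) cells had 1 library each and were genotyped. The heat-shocked embryos gave 1 library each of hspGal4 ; UASEdn1, of hspGal4 ; UASNICD and of hspGal4 alone, called heat-shock Edn1, heat-shock NICD and Gal4 here, and all 3 carried the heat-shock Gal4 driver. These 5 libraries were also sorted on fli1a and sox10, so the hand2-sorted and dlx5a-sorted libraries were the only arch libraries not labelled with fli1a. Embryos were at 36 hours post-fertilisation (hpf), except that the sox10-only libraries were labelled 20, 28 and 36 hpf for replicates 1, 2 and 3. The labels call the fli1a-only material mixed with vasculature and the sox10-only material mixed with ear, so neither is a pure cell type. Whether the replicates are separate batches of embryos is not stated.

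Vessels form when Ets factors, with Etv2 early and Fli1 and Erg alongside and after it, switch on the receptors and junction proteins of endothelium. Vegf ligands act through Kdr, Kdrl and Flt4, while Flt1 binds Vegf and limits the signal, and Vegfc acting on Flt4 drives lymphatic growth. The fli1a reporter marks endothelium and also arch neural crest, which is why sorts for arch crest add sox10 as a marker beside it.

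Levels are in TPM, an abundance unit scaled for gene length and for the total of each library, and the sequencing depth behind them is unknown. Red-cell RNA took a large part of the fli1a-only libraries: embryonic globins held 0.0773% to 1.39% of TPM in the all-arch libraries, 31.9%, 62.7% and 23.1% in fli1a-only replicates 1, 2 and 3, and 0.0481% to 0.196% in the sox10-only libraries. Markers of arch crest (12 genes) summed to 4680, 7760 and 6736 TPM in the all-arch libraries, 1152, 928 and 1376 TPM in the fli1a-only libraries and 1001, 1093 and 963 TPM in the sox10-only libraries. In these bulk libraries, fewer cells of a type and less RNA per cell cannot be told apart.

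The 33 genes summed to 188, 254 and 269 TPM in all-arch replicates 1, 2 and 3, to 1649, 1050 and 3369 TPM in the fli1a-only replicates and to 168, 197 and 232 TPM in the sox10-only replicates. They were thus most abundant in every fli1a-only library. The lowest sum of all was 115 TPM, in the dlx5a-sorted library. Outside the fli1a-only sort the sum was made mostly by a few genes. In the all-arch libraries the 3 most abundant members supplied 64.2%, 67.0% and 67.3% of it, and only 4 members (fli1a, dusp5, ramp2 and gata2a) reached 10 TPM in every all-arch library, while 12 members stayed under 1 TPM in all 3. In the fli1a-only libraries every member was at 1 TPM or more in replicates 1 and 3, and 31 of 33 were in replicate 2.

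**Figure D1:**
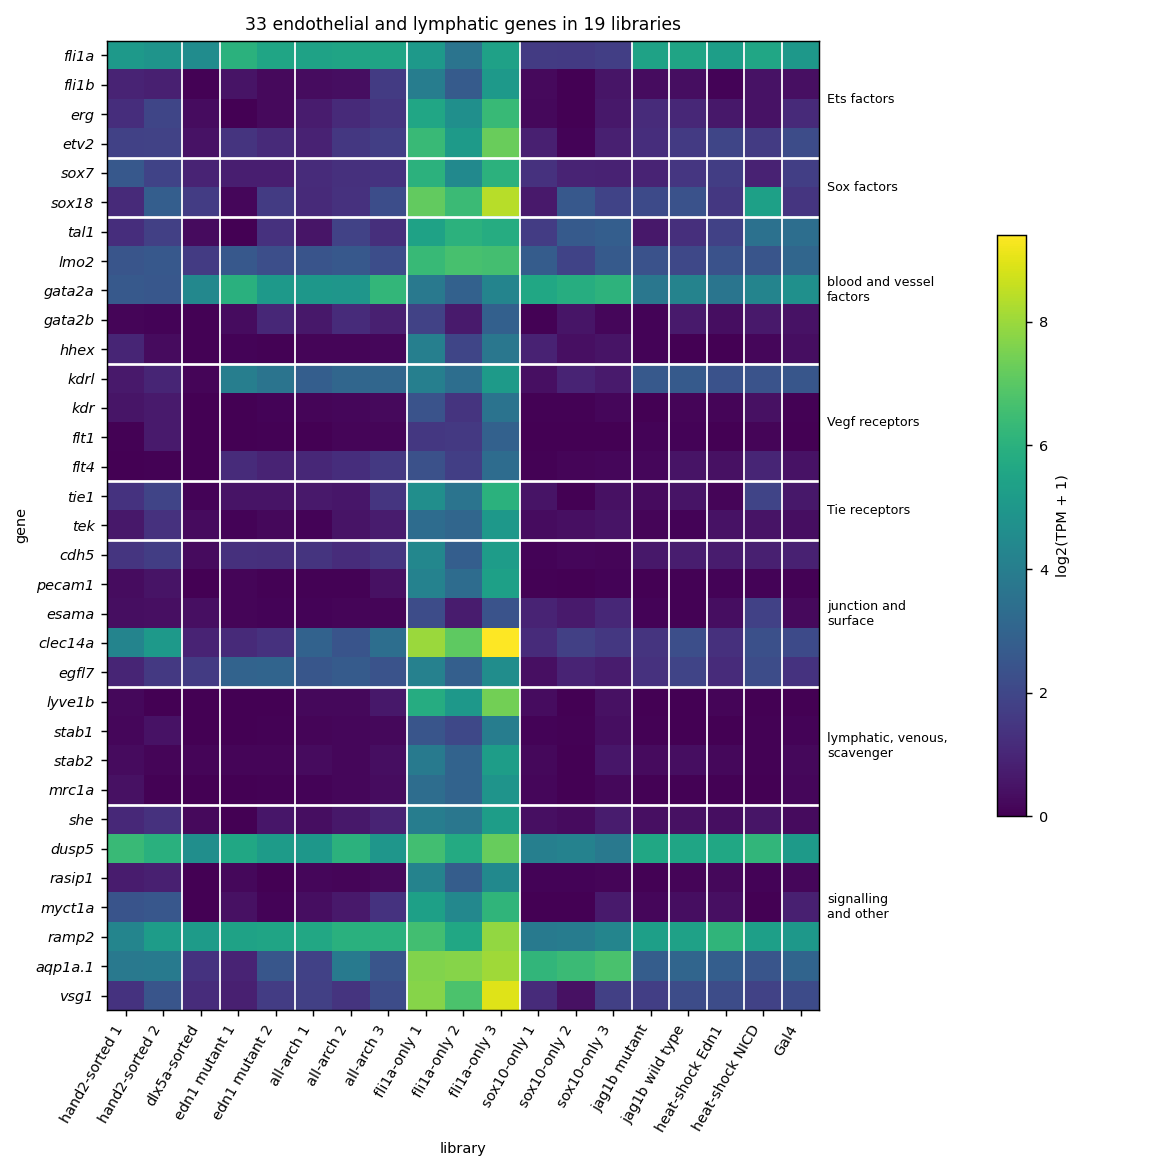
Level of each of the 33 genes (down the page, grouped by role) in each of the 19 libraries (across), as log2(TPM + 1) on the colour scale. The 3 fli1a-only columns are bright for nearly every gene, while fli1a, dusp5, ramp2 and gata2a are bright in most arch columns as well.

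**Figure D2:**
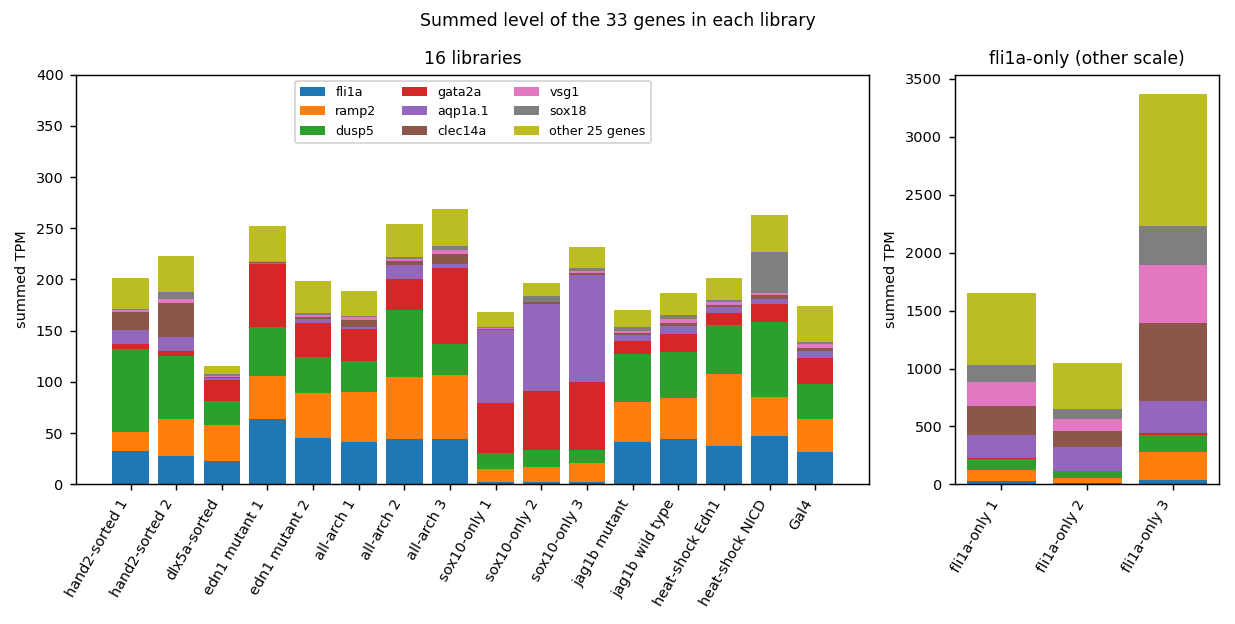
Summed TPM of the 33 genes in each library, stacked by gene, with the 3 fli1a-only libraries on their own scale at the right. The fli1a-only bars reach 1050 to 3369 TPM, and the other 16 bars lie between 115 and 269 TPM.

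The fli1a-only replicates differed in level but had most genes in the same order. Replicate 3 had the highest level of 30 members and replicate 2 the lowest of 29. The exceptions at the top were tal1 and lmo2, partners in blood and vessel progenitors, which were highest in replicate 2, and hhex, which was highest in replicate 1. With the globins removed and each library brought back to the same total, replicate 3 was still highest for 28 members. The low end changed more, with replicate 2 then lowest for 20 members and replicate 1 for 13. Myeloid markers (10 genes) summed to 501, 228 and 4283 TPM in fli1a-only replicates 1, 2 and 3, and their part in the differences between replicates was not tested. In the all-arch sort, replicate 3 was highest for 25 members and replicate 2 for the other 8. Myeloid markers summed to 53.0, 294 and 1644 TPM in those 3 libraries, and red-cell markers to 575, 11105 and 1244 TPM.

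Against the fli1a-only cells, the all-arch cells had lower levels of most of these genes: 25 of the 33 were lower, 1 was higher (gata2a) and 7 did not pass the test, which was limma on log2(TPM + 1) with Benjamini-Hochberg adjustment over all 14270 genes tested and a threshold of 0.05. Over all genes tested, 2.89% were lower and 4.16% were higher. With the replicate number fitted as a block, 29 of the 33 were lower and 1 was higher, beside 6.16% and 44.5% of all genes tested. The median log2 difference was -3.54 over the 33 genes and 0.68 over all genes. The fli1a reporter is part of the definition of both sorts, and 19 of the 33 genes averaged under 1 TPM outside the fli1a-only libraries and entered the test through that sort alone, so the count describes the list and is no independent support for it. As a share of the fli1a-only mean, the all-arch mean lay under 10% for 25 genes, between 10% and 25% for none, between 25% and 50% for 6 and above the fli1a-only mean for 2. Without fli1a-only replicate 3, 24 genes lay under 10%, 1 between 10% and 25%, 2 between 25% and 50%, 4 between 50% and the fli1a-only mean and 2 above it. All shares of the fli1a-only mean given here and below include the globins in the total. Globins took far more of the fli1a-only libraries, so each share is lower with globins left out. On those levels kdrl, flt4, egfl7 and gata2b lie between 10% and 25%, and fli1a is close to the fli1a-only mean.

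The widest log2 differences among the 33 genes were those of vsg1, lyve1b, sox18, clec14a and aqp1a.1, and sox18 is described with the other transcription factors. vsg1, listed in RefSeq as a synonym of plvapb, whose product builds the diaphragms of endothelial pores, had 2.43, 1.66 and 3.52 TPM in all-arch cells, against 206, 106 and 498 TPM in fli1a-only cells. lyve1b, a hyaluronan receptor of lymphatic and some venous endothelium, had 0.147, 0.139 and 0.534 TPM in all-arch cells, against 56.1, 31.5 and 169 TPM in fli1a-only cells. clec14a, a C-type lectin of the endothelial surface, had 6.82, 4.46 and 9.54 TPM in all-arch cells, against 252, 135 and 680 TPM in fli1a-only cells. For each of the 3 genes, the highest all-arch library lay far under the lowest fli1a-only library. By limma, vsg1 was lower by a log2 difference of -6.01 ± 0.53 (SE, adjusted p = 4.93e-05), lyve1b by -5.76 ± 0.50 (adjusted p = 3.88e-05) and clec14a by -5.22 ± 0.52 (adjusted p = 9.37e-05). aqp1a.1, a water channel of endothelium and also of red cells, had 2.54, 13.5 and 4.65 TPM in all-arch cells, against 196, 208 and 271 TPM in fli1a-only cells, a log2 difference of -5.08 ± 0.46 (limma, adjusted p = 4.92e-05). Its highest all-arch value was in replicate 2, the all-arch library with the most red-cell RNA, and the part of red cells in this gene was not tested.

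Of the Ets and Sox factors, all but fli1a were lower in the all-arch cells. etv2 had 0.851, 1.86 and 2.39 TPM in all-arch cells, against 82.2, 33.7 and 154 TPM in fli1a-only cells (log2 difference -4.87 ± 0.50, limma adjusted p = 0.000109). erg had 0.638, 1.18 and 1.77 TPM in all-arch cells, against 46.9, 24.7 and 79.1 TPM in fli1a-only cells (-4.43 ± 0.42, limma adjusted p = 6.78e-05). fli1b had 0.235, 0.281 and 2.09 TPM in all-arch cells, against 14.8, 5.53 and 33.3 TPM in fli1a-only cells (-3.17 ± 0.56, limma adjusted p = 0.00705). sox18, which acts with sox7 in artery and vein identity and in lymphatic development, had 1.16, 1.56 and 3.70 TPM in all-arch cells, against 140, 84.0 and 337 TPM in fli1a-only cells (-5.75 ± 0.59, limma adjusted p = 0.000177). sox7 had 1.24, 1.499 and 1.57 TPM in all-arch cells, against 65.3, 20.9 and 65.5 TPM in fli1a-only cells (-4.24 ± 0.43, limma adjusted p = 9.45e-05).

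fli1a, the gene of the sort reporter, stood apart from its paralog fli1b. It had 41.6, 43.9 and 44.5 TPM in all-arch cells, against 32.0, 11.2 and 41.3 TPM in fli1a-only cells and 2.11, 2.03 and 2.33 TPM in sox10-only cells. The difference between all-arch and fli1a-only cells did not pass the test (log2 difference 0.78 ± 0.43, limma adjusted p = 0.171), although every all-arch value was above every fli1a-only value, as it was for 38.5% of all genes tested. With globins left out fli1a had 41.6, 44.6 and 44.6 TPM in all-arch cells, against 47.0, 30.1 and 53.8 TPM in fli1a-only cells, and the values overlapped. With each library rescaled by its median ratio to the others, which brought the median of all genes down to 0.06 here, the fli1a difference was 0.01. The all-arch mean of fli1b was 4.86% of the fli1a-only mean, but 1.44% without all-arch replicate 3 and 8.55% without fli1a-only replicate 3. That of erg was 2.38% and that of etv2 1.89% (2.93% without fli1a-only replicate 3), while that of fli1a was 154%, all with globins included in the total. Both sorts were higher than the sox10-only cells for fli1a, which is the gene of the sort.

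**Figure D3:**
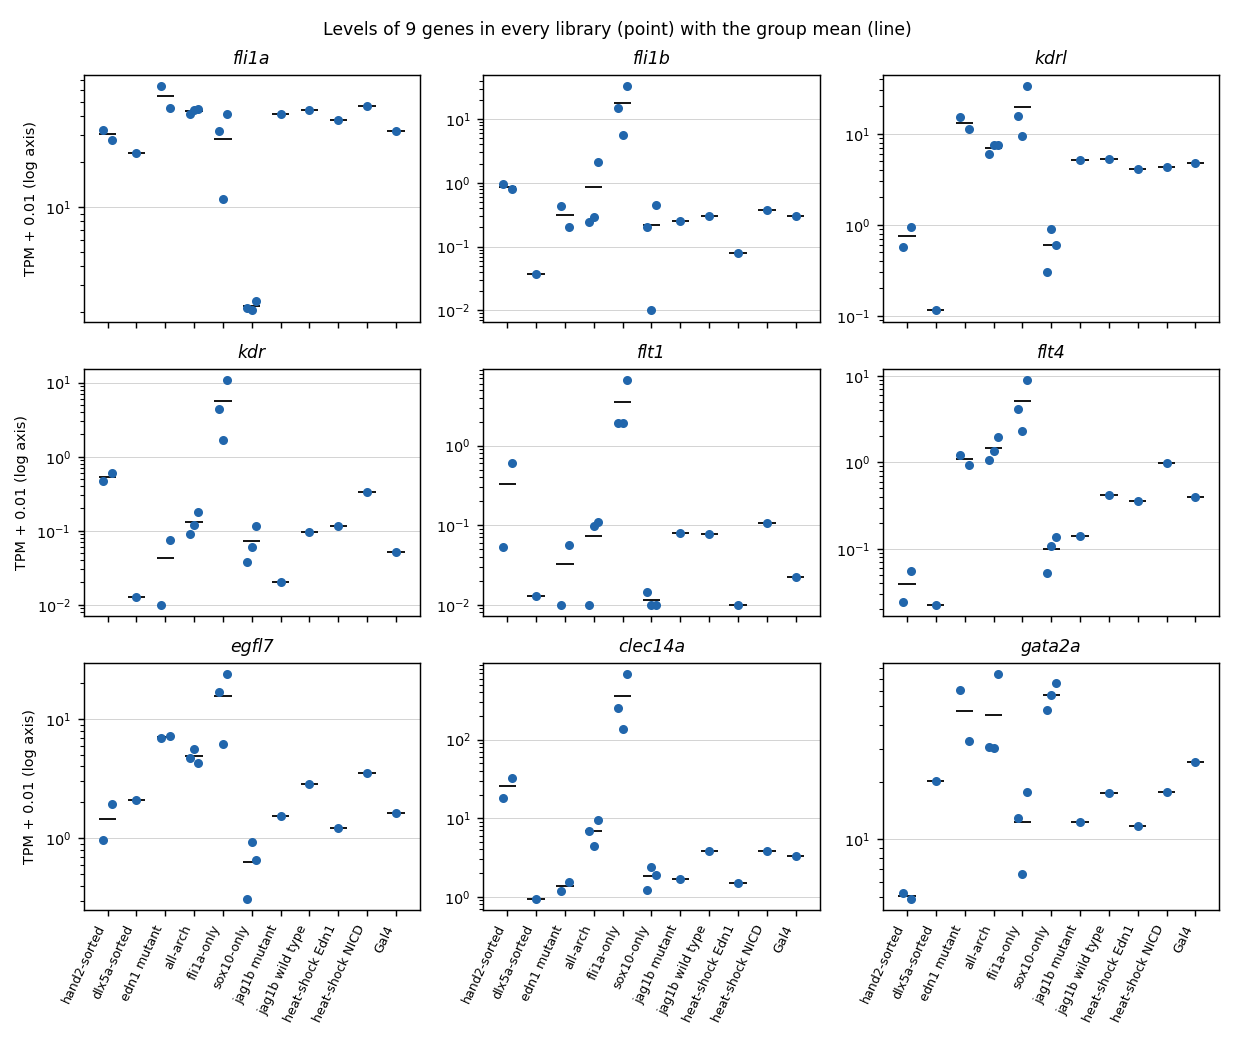
Level of 9 genes in every library (points) with the group mean (line), as TPM + 0.01 on a log axis, for the 11 groups. fli1a sits at 11.2 to 64.0 TPM in all groups but sox10-only, and kdrl and flt4 are lower in the hand2-sorted and dlx5a-sorted libraries than in every library sorted on both fli1a and sox10.

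The 4 Vegf receptors split into 2 pairs. kdr and flt1 were under 0.2 TPM in every all-arch library. kdr, a receptor for Vegfa, had 0.0799, 0.110 and 0.169 TPM in all-arch cells, against 4.35, 1.69 and 10.8 TPM in fli1a-only cells (log2 difference -2.31 ± 0.43, limma adjusted p = 0.00665). flt1, the receptor that limits Vegf signalling, was listed at 0, 0.0884 and 0.0991 TPM in all-arch cells, against 1.89, 1.92 and 6.65 TPM in fli1a-only cells (-1.92 ± 0.36, limma adjusted p = 0.00705). kdrl, the other Vegfa receptor, had 5.95, 7.56 and 7.52 TPM in all-arch cells, against 15.9, 9.49 and 33.8 TPM in fli1a-only cells. flt4, the Vegfc receptor, had 1.05, 1.33 and 1.94 TPM in all-arch cells, against 4.09, 2.31 and 8.92 TPM in fli1a-only cells. The all-arch mean was thus 35.6% of the fli1a-only mean for kdrl and 28.1% for flt4, against 2.13% for kdr and 1.79% for flt1. Without fli1a-only replicate 3 these shares were 55.3% for kdrl, 44.9% for flt4, 3.96% for kdr and 3.28% for flt1. The libraries did not overlap for kdrl or flt4, as they did not for 28 of the 33 genes in that direction and for 5.75% of all genes tested, but neither passed the test (kdrl -1.20 ± 0.42, limma adjusted p = 0.0706, and flt4 -1.19 ± 0.37, limma adjusted p = 0.0609). With the replicate number as a block both passed (limma adjusted p = 0.00871 for kdrl and 0.00328 for flt4), and so did egfl7 and dusp5 (limma adjusted p = 0.0112 and 0.022), and under that block 44.5% of all genes tested were higher and 6.16% were lower. Without fli1a-only replicate 2, kdrl, flt4, egfl7 and gata2b also passed (limma adjusted p = 0.0381, 0.0315, 0.00896 and 0.0444).

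The genes at an intermediate level in the all-arch cells were gata2b, flt4, egfl7, kdrl, dusp5 and ramp2. egfl7, which encodes a secreted endothelial protein, had 4.70, 5.57 and 4.27 TPM in all-arch cells, against 16.7, 6.13 and 23.7 TPM in fli1a-only cells. dusp5, a phosphatase that acts on nuclear ERK, had 30.7, 65.1 and 30.0 TPM in all-arch cells, against 94.2, 52.9 and 150 TPM in fli1a-only cells. ramp2, a partner of the adrenomedullin receptor, had 48.5, 61.1 and 62.6 TPM in all-arch cells, against 93.1, 47.8 and 237 TPM in fli1a-only cells. For dusp5 and ramp2 the all-arch values overlapped those of the fli1a-only sort, through fli1a-only replicate 2. With globins left out they did not overlap. dusp5 then had 30.7, 66.1 and 30.1 TPM in all-arch cells, against 138, 142 and 195 TPM in fli1a-only cells. ramp2 then had 48.6, 62.0 and 62.7 TPM in all-arch cells, against 137, 128 and 308 TPM in fli1a-only cells. gata2b, a factor of blood-forming endothelium, had 0.531, 1.22 and 0.784 TPM in all-arch cells, against 2.66, 0.623 and 6.42 TPM in fli1a-only cells, which also overlapped. With globins left out gata2b had 0.532, 1.24 and 0.785 TPM in all-arch cells, against 3.91, 1.67 and 8.35 TPM in fli1a-only cells, without overlap. The adjusted p (limma) of these 4 genes was 0.0631 for egfl7, 0.0759 for dusp5, 0.197 for ramp2 and 0.129 for gata2b. With the median-ratio rescaling 31 of the 33 genes were lower, all 6 intermediate genes among them, and the exceptions were fli1a and gata2a. With globins left out kdrl, flt4, egfl7, dusp5 and ramp2 also passed as lower (limma adjusted p = 0.00445, 0.0046, 0.00293, 0.00672 and 0.0232).

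gata2a, a vascular and neural transcription factor, was the only member higher in the all-arch cells. It had 30.7, 30.1 and 73.7 TPM in all-arch cells, against 12.9, 6.55 and 17.7 TPM in fli1a-only cells and 48.1, 57.6 and 66.0 TPM in sox10-only cells. The log2 difference from the fli1a-only cells was 1.74 ± 0.44 (limma, adjusted p = 0.0355). It did not pass without all-arch replicate 2 (limma adjusted p = 0.0549), all-arch replicate 3 (0.171), fli1a-only replicate 1 (0.0611) or fli1a-only replicate 2 (0.0788), and under the median-ratio rescaling it was 0.99 (limma adjusted p = 0.0653). Nor did it pass on the deposited scale (0.0503), without a filter on low values (0.0873) or with globins left out (0.128), all limma adjusted p. Its relatives by role went the other way: tal1 had 0.463, 2.63 and 1.43 TPM in all-arch cells, against 41.5, 65.8 and 55.2 TPM in fli1a-only cells (-4.53 ± 0.43, limma adjusted p = 6.56e-05). lmo2, the partner of tal1, had 4.47, 5.02 and 3.66 TPM in all-arch cells, against 81.0, 101 and 96.8 TPM in fli1a-only cells (-4.13 ± 0.34, limma adjusted p = 3.47e-05). hhex, a homeobox factor of endothelium and liver, averaged 0.110 TPM in all-arch cells and 10.3 TPM in fli1a-only cells (-3.10 ± 0.45, limma adjusted p = 0.00138).

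The remaining receptors and junction genes were all lower in the all-arch cells. tie1, a partner of the angiopoietin receptor, had 0.565, 0.5002 and 1.76 TPM in all-arch cells, against 24.1, 11.3 and 64.0 TPM in fli1a-only cells (log2 difference -3.87 ± 0.52, limma adjusted p = 0.000941). tek, the angiopoietin receptor itself, averaged 0.378 TPM in all-arch cells and 16.04 TPM in fli1a-only cells (-3.38 ± 0.44, limma adjusted p = 0.000574). pecam1, an adhesion molecule of endothelial junctions, had 0.0332, 0.0439 and 0.338 TPM in all-arch cells, against 17.2, 8.98 and 40.1 TPM in fli1a-only cells (-4.11 ± 0.43, limma adjusted p = 0.000112). cdh5, the VE-cadherin gene, had 1.66, 1.31 and 1.80 TPM in all-arch cells, against 19.7, 5.97 and 35.8 TPM in fli1a-only cells, and the all-arch mean was 7.76% of the fli1a-only mean, or 12.4% without fli1a-only replicate 3 (-2.76 ± 0.48, limma adjusted p = 0.00506). esama, an adhesion molecule of tight junctions, averaged 0.0888 TPM in all-arch cells and 2.82 TPM in fli1a-only cells (-1.64 ± 0.39, limma adjusted p = 0.0278). It did not pass without all-arch replicate 2 (limma adjusted p = 0.0814) or all-arch replicate 3 (0.0865), on the deposited scale (0.0548) or without a filter on low values (0.0778).

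Of the scavenger receptors shared by venous and lymphatic endothelium in zebrafish, stab1, stab2 and mrc1a stayed under 0.3 TPM in every all-arch library. They averaged 0.120, 0.192 and 0.148 TPM in all-arch cells, against 7.48, 18.99 and 14.7 TPM in fli1a-only cells. All 3 passed (limma adjusted p = 0.00202, 0.00038 and 0.000248). Among the other genes, myct1a had 0.281, 0.543 and 1.63 TPM in all-arch cells, against 40.2, 20.0 and 70.2 TPM in fli1a-only cells (log2 difference -4.51 ± 0.45, limma adjusted p = 9.45e-05). The adaptor gene she averaged 0.558 TPM in all-arch cells and 21.4 TPM in fli1a-only cells, and rasip1, needed for vessel lumens, averaged 0.140 TPM in all-arch cells and 14.8 TPM in fli1a-only cells. Both passed (limma adjusted p = 0.000133 for she and 0.000135 for rasip1).

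**Figure D4:**
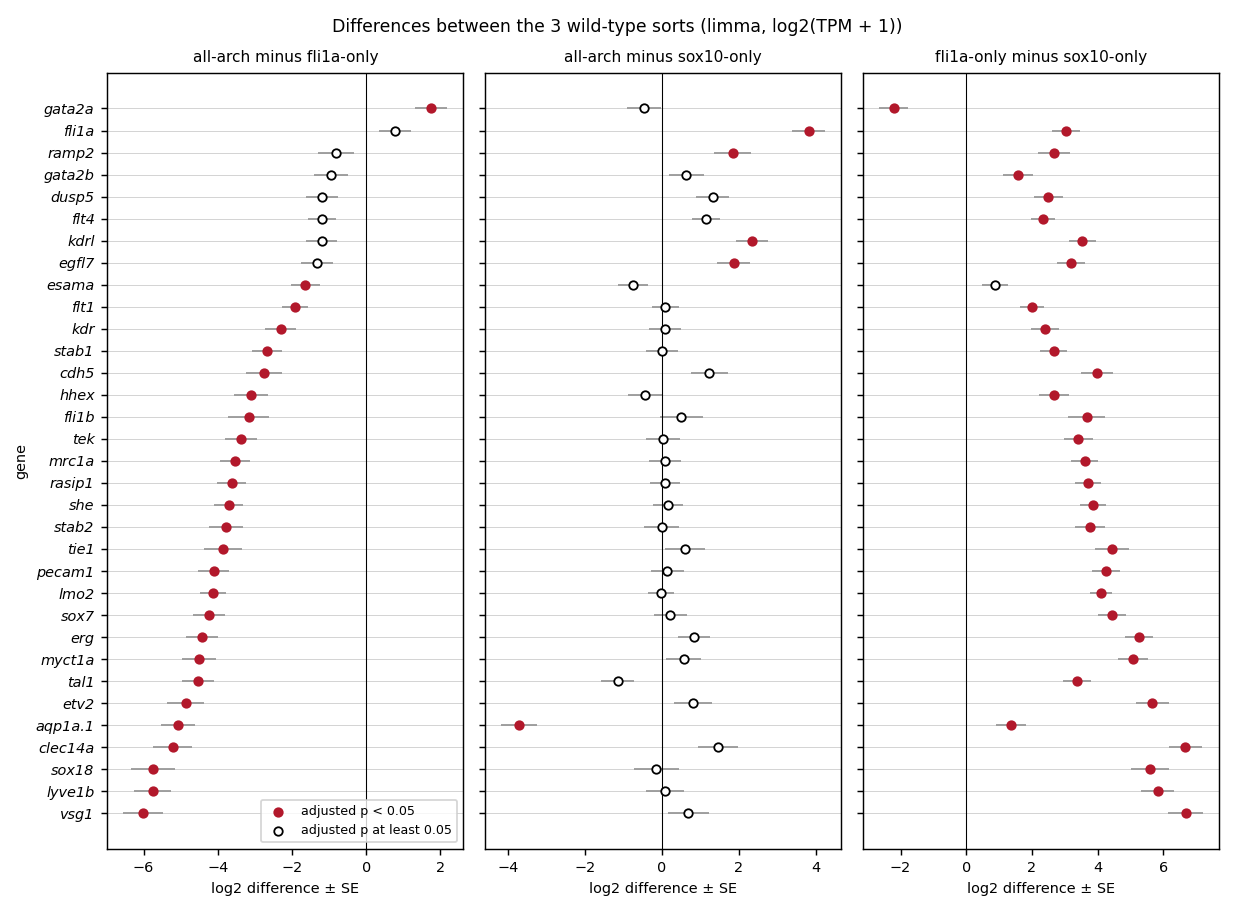
Log2 difference (point) with its standard error (line) for each of the 33 genes in the 3 comparisons of wild-type sorts, with genes ordered by the first comparison. Filled points passed the test: 26 in all-arch minus fli1a-only, 5 in all-arch minus sox10-only and 32 in fli1a-only minus sox10-only.

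Against the sox10-only cells, 4 of the 33 genes were higher in the all-arch cells (fli1a, kdrl, egfl7 and ramp2), 1 was lower (aqp1a.1) and the other 28 did not pass the test. Over all genes tested, 3.4% were higher and 10% were lower, and the median log2 difference was 0.16 over the members and -0.04 over all genes. Here 19 of the 33 genes averaged under 1 TPM outside the fli1a-only libraries. They entered the test through that sort, which is not compared here, so counts of members and shares of all genes are not on like genes. fli1a is the gene of the all-arch sort's reporter. With the replicate number fitted as a block, 8 members were higher and 2 lower, as given below. kdrl had 5.95, 7.56 and 7.52 TPM in all-arch cells, against 0.296, 0.898 and 0.591 TPM in sox10-only cells (log2 difference 2.34 ± 0.42, limma adjusted p = 0.00168). egfl7 had 4.70, 5.57 and 4.27 TPM in all-arch cells, against 0.300, 0.912 and 0.643 TPM in sox10-only cells (1.87 ± 0.43, limma adjusted p = 0.00916). ramp2 had 48.5, 61.1 and 62.6 TPM in all-arch cells, against 13.2, 14.6 and 18.3 TPM in sox10-only cells (1.84 ± 0.48, limma adjusted p = 0.0209). These 3 genes, also of the intermediate group above, were 11.8-fold, 7.85-fold and 3.73-fold higher by their means, and no all-arch library overlapped a sox10-only library. The libraries did not overlap for 13 members that were higher and 3 that were lower in the all-arch cells, against 10.8% and 20.6% of all genes tested. The ramp2 result did not pass without all-arch replicate 2 (limma adjusted p = 0.0591), all-arch replicate 3 (0.0649) or sox10-only replicate 2 (0.0625), nor against the 36 hpf sox10-only library alone (0.248), where egfl7 did not pass either (0.0808). On the deposited scale none of the 3 passed (limma adjusted p = 0.114 for kdrl, 0.242 for egfl7 and 0.0625 for ramp2).

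Of the other members, flt4, cdh5, dusp5, clec14a and tal1 passed when the replicate number was fitted as a block, which gave 8 higher and 2 lower. Under the same block 5.99% of all genes tested were higher and 14.6% were lower. The sox10-only replicates 1, 2 and 3 were of 20, 28 and 36 hpf, so in that sort the block cannot be told apart from stage. Without the block, flt4, cdh5, clec14a and dusp5 also passed with median-ratio rescaling (limma adjusted p = 0.0065, 0.0337, 0.0159 and 0.0105). They passed with globins left out too (limma adjusted p = 0.019, 0.0391, 0.0342 and 0.0197). With a pseudocount of 0.1, flt4, cdh5 and clec14a passed (limma adjusted p = 0.00407, 0.00323 and 0.0397). flt4 had 1.05, 1.33 and 1.94 TPM in all-arch cells, against 0.0432, 0.0984 and 0.126 TPM in sox10-only cells (limma adjusted p = 0.062, or 0.00278 with the block). cdh5 had 1.66, 1.31 and 1.80 TPM in all-arch cells, against 0.0677, 0.121 and 0.107 TPM in sox10-only cells (limma adjusted p = 0.141, or 0.0368 with the block). dusp5 had 30.7, 65.1 and 30.0 TPM in all-arch cells, against 15.8, 17.04 and 13.0 TPM in sox10-only cells (limma adjusted p = 0.068, or 0.0206 with the block). For these 3 genes every all-arch value lay above every sox10-only value, as it did for 10.8% of all genes tested. flt4 and cdh5 averaged under 1 TPM over the all-arch and sox10-only libraries and entered the test through the fli1a-only sort. clec14a averaged 6.94 TPM in all-arch cells and 1.83 TPM in sox10-only cells (limma adjusted p = 0.0921, or 0.00718 with the block). tal1 averaged 1.51 TPM in all-arch cells and 4.50 TPM in sox10-only cells (limma adjusted p = 0.113, or 0.00626 with the block), and it also passed without sox10-only replicate 1 (0.0357).

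aqp1a.1 was the member in which the sox10-only cells stood highest against the arch. It had 2.54, 13.5 and 4.65 TPM in all-arch cells, against 71.4, 84.4 and 104 TPM in sox10-only cells (log2 difference -3.71 ± 0.46, limma adjusted p = 0.000115), and the all-arch mean was 12.6-fold lower, or 24.1-fold lower without all-arch replicate 2. In the sox10-only libraries aqp1a.1 was the most abundant member and gata2a the next. Globins held under 0.2% of TPM in each of these libraries. Other cell types differed between the same sorts: epithelial markers (6 genes) summed to 147, 91.2 and 1030 TPM in the all-arch libraries, against 5102, 2147 and 3430 TPM in the sox10-only libraries. Neuron markers (7 genes) summed to 243 to 436 TPM in the all-arch libraries, against 1041 to 1360 TPM in the sox10-only libraries. Markers of the sox10 lineage and ear (10 genes) summed to 22.7 to 187 TPM in the all-arch libraries, against 2688 to 3170 TPM in the sox10-only libraries. Of the genes tested, 4 of 5 epithelial, 6 of 7 neuron and 9 of 9 sox10-lineage and ear markers were lower in the all-arch cells, and their part in the results against the sox10-only cells was not tested.

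In the remaining pair of sorts, 31 of the 33 genes were higher in the fli1a-only than in the sox10-only cells, gata2a was lower and esama did not pass (limma adjusted p = 0.0939, but 0.0161 with the replicate block and 0.00373 without fli1a-only replicate 2). Over all genes tested 4.06% were higher and 24.4% were lower, and the median log2 difference was 3.61 over the members and -0.78 over all genes. With globins left out, 6.7% of all genes tested were higher and 8.43% were lower, and their median was -0.14. Here too, 19 of the 33 genes entered the test through the fli1a-only sort alone, and fli1a is the gene of that sort's reporter. The count thus describes the list and is no independent support for it. The libraries did not overlap for 31 genes that were higher and for gata2a, which was lower, against 5% and 42.9% of all genes tested. vsg1 had 206, 106 and 498 TPM in fli1a-only cells, against 1.21, 0.336 and 2.41 TPM in sox10-only cells (log2 difference 6.69 ± 0.53, limma adjusted p = 7.15e-06). clec14a had 252, 135 and 680 TPM in fli1a-only cells, against 1.22, 2.41 and 1.87 TPM in sox10-only cells (6.68 ± 0.52, limma adjusted p = 6.46e-06). gata2a ran against the rest, with 12.9, 6.55 and 17.7 TPM in fli1a-only cells, against 48.1, 57.6 and 66.0 TPM in sox10-only cells (-2.21 ± 0.44, limma adjusted p = 0.00331). With globins left out the gap was smaller, without overlap: gata2a had 18.9, 17.6 and 23.1 TPM in fli1a-only cells, against 48.1, 57.7 and 66.1 TPM in sox10-only cells. The results for aqp1a.1 (1.37 ± 0.46, limma adjusted p = 0.0439) and gata2b (1.58 ± 0.45, limma adjusted p = 0.0263) were the weakest of the 32. aqp1a.1 did not pass when any of the 6 libraries was left out (limma adjusted p from 0.0655 to 0.116). gata2b did not pass without fli1a-only replicate 1 (limma adjusted p = 0.057), sox10-only replicate 1 (0.0528) or sox10-only replicate 3 (0.0763). Against the 36 hpf sox10-only library alone neither passed (limma adjusted p = 0.251 for aqp1a.1 and 0.123 for gata2b).

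Other genes of vessel signalling were compared in the same fit, from lists chosen with earlier results of these data known. Over all genes tested in all-arch minus fli1a-only, 4.16% were higher and 2.89% were lower. Of 8 tested genes of the Vegf ligands and co-receptors, 2 were higher in all-arch than in fli1a-only cells and none was lower: vegfaa, a ligand of Kdr and Kdrl (log2 difference 1.53, limma adjusted p = 0.0484), and vegfd (1.37, limma adjusted p = 0.0182). Of 2 tested angiopoietins, angpt1, the ligand of Tek, was higher in all-arch cells (1.34, limma adjusted p = 0.014). Of 10 genes of flow response and guidance, 3 were lower in all-arch cells, with aplnrb, an apelin receptor, the furthest (-4.73, limma adjusted p = 0.000242). Of 16 other tested vessel genes, 9 were lower and none higher, with sele, an endothelial selectin, at -5.49 (limma adjusted p = 3.47e-05) and gpr182 at -5.36 (limma adjusted p = 6.88e-05). The 1 TPM filter of this fit took in the fli1a-only libraries. Of the 20 genes of that list, 11 were tested in the fit of arch libraries, so some may have entered through the fli1a-only sort. As for the members, counts of lower genes describe these lists and are no independent support for them. None of 8 tested artery and vein genes passed in that comparison, and 1 of 3 tested lymphatic genes, mafbb, was lower (-2.34, limma adjusted p = 0.0451). Several of these calls depended on 1 library. vegfaa did not pass without all-arch replicate 2 (limma adjusted p = 0.168), all-arch replicate 3 (0.188), fli1a-only replicate 1 (0.0913) or fli1a-only replicate 2 (0.105), and with median-ratio rescaling it was 0.85 (0.111). vegfd did not pass without all-arch replicate 2 (limma adjusted p = 0.109) or fli1a-only replicate 1 (0.0526), nor with globins left out (0.0755). angpt1 did not pass without all-arch replicate 2 (limma adjusted p = 0.0516) or all-arch replicate 3 (0.053), nor with median-ratio rescaling (0.0574). mafbb did not pass when any library but fli1a-only replicate 3 was left out (limma adjusted p from 0.0676 to 0.0995). With the replicate block, 5 of the 8 Vegf ligand and co-receptor genes were higher, and 3 of the 8 artery and vein genes were higher and 2 lower. Of the 10 flow and guidance genes 2 were higher and 4 lower, and 2 of the 3 lymphatic genes were lower. Under that block 44.5% of all genes tested were higher and 6.16% were lower, so the counts of higher genes are to be read beside that large share.

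The hand2-sorted arch cells had lower kdrl and gata2a than the all-arch cells, and no other member of the 18 tested passed. The other 15 members averaged under 1 TPM in the arch libraries compared here and were not tested. Over all 13206 genes tested, 1.26% were lower and 0.295% were higher. kdrl had 0.554 and 0.940 TPM in hand2-sorted cells, against 5.95, 7.56 and 7.52 TPM in all-arch cells (log2 difference -2.20 ± 0.27, limma adjusted p = 0.0159), a 9.38-fold lower mean. gata2a had 5.24 and 4.86 TPM in hand2-sorted cells, against 30.7, 30.1 and 73.7 TPM in all-arch cells (-2.79 ± 0.46, limma adjusted p = 0.0433). The groups did not overlap for either gene, but neither passed when any of the 5 libraries was left out (limma adjusted p from 0.0524 to 0.149 for kdrl and from 0.0861 to 0.264 for gata2a). On the deposited scale neither passed (limma adjusted p = 0.0666 for kdrl and 0.113 for gata2a), and gata2a did not pass with median-ratio rescaling (0.0544) or without a filter on low values (0.113).

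The members were not low as a set in the hand2-sorted cells. The median log2 difference was 0.33 over the 18 tested members and -0.12 over all genes tested. myct1a had 4.44 and 4.89 TPM in hand2-sorted cells, against 0.281, 0.543 and 1.63 TPM in all-arch cells (log2 difference 1.71 ± 0.36, limma adjusted p = 0.0833). clec14a had 18.0 and 32.7 TPM in hand2-sorted cells, against 6.82, 4.46 and 9.54 TPM in all-arch cells (1.72 ± 0.38, limma adjusted p = 0.103). egfl7 had 0.962 and 1.93 TPM in hand2-sorted cells, against 4.70, 5.57 and 4.27 TPM in all-arch cells (-1.28 ± 0.28, limma adjusted p = 0.0938). None of these 3 passed, though the groups did not overlap for any of them. myct1a did pass as higher with median-ratio rescaling (limma adjusted p = 0.0451) and on the deposited scale (0.0415). Across the 33 genes, 9 had every hand2-sorted value above the all-arch values and 7 had every value below. The shares of all genes tested were 11.7% and 15.7%. These shares leave out genes averaging under 1 TPM, while the counts include 15 such members, so they are not on like genes. Of the pathway genes, dll4, a Notch ligand of arteries, was higher (1.95, limma adjusted p = 0.0221) and nrp2b, a Vegf co-receptor, was lower (-2.30, limma adjusted p = 0.0167). Neither passed when any of the 5 libraries was left out (limma adjusted p from 0.0557 to 0.186 for dll4 and from 0.0524 to 0.152 for nrp2b). Myeloid markers summed to 294 and 108 TPM in the hand2-sorted libraries, and epithelial markers (6 genes) to 1889 and 1769 TPM, against 147, 91.2 and 1030 TPM of epithelial markers in the all-arch libraries. Their part in these results was not tested.

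The dlx5a-sorted library was low for most members: 29 of the 33 lay below all 3 all-arch values, as did 51.1% of all genes tested. That share covers genes averaging 1 TPM or more, and 15 of the 33 members averaged less, so count and share are not on like genes. kdrl was the only member to pass, at 0.104 TPM in dlx5a-sorted cells, against 5.95, 7.56 and 7.52 TPM in all-arch cells (log2 difference -2.85 ± 0.34, limma adjusted p = 0.035). Lower calls made up 0.318% of all genes tested and higher calls 0.0757%. This comparison has 1 dlx5a-sorted library, assumed to vary like the other groups, and kdrl did not pass when any all-arch library was left out (limma adjusted p from 0.0968 to 0.124). Myeloid markers summed to 3.32 TPM in this library, the lowest of all 19, against 53.0 to 1644 TPM in the all-arch libraries. Mural-cell markers (9 genes) summed to 15.8 TPM in it, against 31.6 to 70.5 TPM in the all-arch libraries. Epithelial markers summed to 1515 TPM in it, against 91.2 to 1030 TPM in the all-arch libraries, and sox10-lineage and ear markers to 213 TPM, against 22.7 to 187 TPM in the all-arch libraries. The part of these cell types in the results was not tested.

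Set against the 10 libraries sorted on both fli1a and sox10, the 3 libraries sorted on hand2 or dlx5a lay below all of them for kdrl and flt4, and did not separate for the other 31 members. Of 13187 genes averaging 1 TPM or more over these 13 libraries, 4.34% lay below and 1.28% above in the same way, and flt4 averaged under 1 TPM and was not tested. kdrl was the only member averaging 1 TPM or more that lay below, so this describes single genes and not the list. kdrl lay at 0.104 to 0.940 TPM in the 3 libraries sorted on hand2 or dlx5a, and between 4.15 and 15.2 TPM, with a median of 5.65 TPM, in the 10 sorted on both fli1a and sox10. flt4 lay at 0.0126 to 0.0448 TPM in the 3 libraries and between 0.129 and 1.94 TPM, with a median of 0.955 TPM, in the 10. fli1a itself lay at 22.8 to 32.6 TPM in the 3 libraries and between 31.8 and 64.0 TPM in the 10, so the ranges of the reporter's own gene overlapped. The overlap came only from hand2-sorted replicate 1 (32.6 TPM) and Gal4 (31.8 TPM). All 3 libraries sorted on hand2 or dlx5a lay below every all-arch library (41.6 to 44.5 TPM) for fli1a. hand2 and dlx5a mark regions of the arch, so the marker used for sorting and the region cannot be told apart here.

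Between the edn1 mutant cells, which lack the ventral arch signal Endothelin 1, and the all-arch cells none of the 18 members tested by limma passed. Over all genes tested, 0.00757% were lower, a single gene, and none was higher. kdrl had 15.2 and 11.3 TPM in edn1 mutant cells, against 5.95, 7.56 and 7.52 TPM in all-arch cells (log2 difference 0.82 ± 0.27). clec14a had 1.16 and 1.55 TPM in edn1 mutant cells, against 6.82, 4.46 and 9.54 TPM in all-arch cells (-1.71 ± 0.38). erg was listed at 0 and 0.193 TPM in edn1 mutant cells, against 0.638, 1.18 and 1.77 TPM in all-arch cells (-0.97 ± 0.35). For these 3 genes the groups did not overlap. Over the 33 genes, 3 had every edn1 mutant value above the all-arch values and 11 below. The shares of all genes tested were 9.7% and 5.18%. These shares cover only genes averaging 1 TPM or more, which 15 of the 33 did not, so counts and shares are not on like genes. The limma adjusted p of kdrl, clec14a and erg was 1 when rounded. fli1a had 64.0 and 45.4 TPM in edn1 mutant cells, against 41.6, 43.9 and 44.5 TPM in all-arch cells (0.31 ± 0.24).

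The last 3 comparisons rest on 1 library each, so no test was made, and a gene was counted where the log2 ratio of TPM + 1 was at least 1 in size and the higher library had at least 10 TPM. jag1b encodes a Notch ligand of the dorsal arch. In the jag1b mutant library none of the 33 genes differed from jag1b wild type by that rule, which 0.192% of 5718 genes with at least 10 TPM passed as higher and 0.7% as lower. Only 4 members reached 10 TPM in either library. fli1a had 41.5 TPM in the jag1b mutant and 43.9 TPM in jag1b wild type, and kdrl had 5.12 TPM in the jag1b mutant and 5.35 TPM in jag1b wild type. The widest log2 difference was in clec14a (-0.85), at 1.69 TPM in the jag1b mutant and 3.84 TPM in jag1b wild type.

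Heat-shock Edn1 and heat-shock NICD, which forces Notch signalling through its intracellular domain, share the Gal4 library as their control. With heat-shock Edn1, ramp2 was higher, at 70.3 TPM against 31.8 TPM in Gal4 (2.21-fold), and gata2a was lower, at 11.7 TPM against 25.4 TPM in Gal4. By the same rule, 2.42% of genes were higher and 1.29% were lower. Both values lie close to the rule's limit: with the median-ratio rescaling only gata2a was past it, and on the deposited scale neither was. kdrl had 4.15 TPM with heat-shock Edn1 and 4.77 TPM in Gal4. tal1 had 2.50 TPM with heat-shock Edn1 and 9.51 TPM in Gal4. Its log2 ratio of -1.59 was wider than those of ramp2 and gata2a, but its higher value was just under the 10 TPM minimum. Red-cell markers (13 genes) summed to 867 TPM with heat-shock Edn1 and 6954 TPM in Gal4. In the heat-shock NICD library tal1 had 10.5 TPM, as high as in Gal4, and red-cell markers summed to 2506 TPM. The part of red cells in the tal1 values was not tested.

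With heat-shock NICD, sox18 gave the widest difference of the 33 genes in the 3 single-library comparisons. It had 39.8 TPM with heat-shock NICD and 1.70 TPM in Gal4, a 23.4-fold ratio and a log2 ratio of 3.92. In the other 9 libraries sorted on fli1a and sox10, sox18 lay between 0.121 and 4.20 TPM, so the heat-shock NICD value was the highest of the 10. dusp5 also passed the rule, at 72.7 TPM with heat-shock NICD and 34.0 TPM in Gal4, but its log2 ratio of 1.07 lies close to the limit, and it was not past it with the median-ratio rescaling or on the deposited scale. By this rule 5.04% of genes were higher and 2.09% were lower. esama had 2.57 TPM with heat-shock NICD and 0.172 TPM in Gal4, and tie1 had 2.81 TPM with heat-shock NICD and 0.534 TPM in Gal4, both under the 10 TPM minimum. Other vessel genes did not move alike: sox7, the relative of sox18, had 0.874 TPM with heat-shock NICD and 2.32 TPM in Gal4, and kdrl had 4.26 TPM with heat-shock NICD and 4.77 TPM in Gal4.

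**Figure D5:**
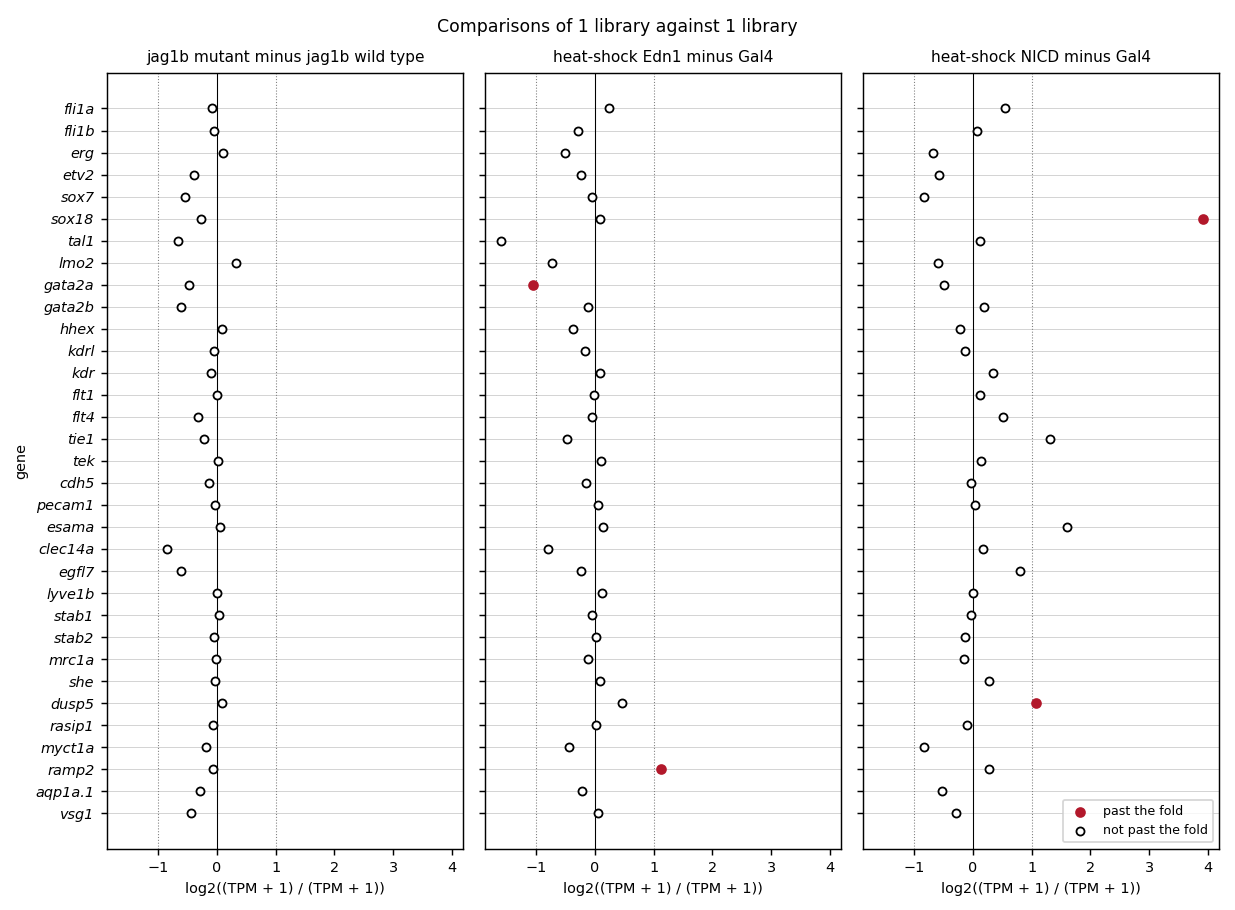
Log2 ratio of TPM + 1 for each of the 33 genes in the 3 comparisons of 1 library against 1 library, with dotted lines at -1 and 1. Filled points also have at least 10 TPM in the higher library: none for jag1b mutant, gata2a and ramp2 for heat-shock Edn1, and sox18 and dusp5 for heat-shock NICD.

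Of the 58 pathway genes, 17 had at least 10 TPM in either library, 4 of which were higher and 1 lower with heat-shock NICD by the same rule. hey2, a Notch target and arterial factor, had 163 TPM with heat-shock NICD and 25.5 TPM in Gal4. s1pr1, a receptor of endothelium and other cells, had 1169 TPM with heat-shock NICD and 225 TPM in Gal4. mmrn2a, whose product binds Clec14a in mammals, had 56.4 TPM with heat-shock NICD and 5.26 TPM in Gal4. dlc, a Notch ligand, had 68.3 TPM with heat-shock NICD and 20.1 TPM in Gal4. dll4 was the lower one, at 5.17 TPM with heat-shock NICD and 12.2 TPM in Gal4. aplnrb, under the 10 TPM minimum, had 0.944 TPM with heat-shock NICD and 9.11 TPM in Gal4. clec14a itself had 3.86 TPM with heat-shock NICD and 3.33 TPM in Gal4. Mural-cell markers (9 genes), which mark the cells around vessels, summed to 321 TPM with heat-shock NICD and 39.7 TPM in Gal4, with abcc9, kcnj8, pdgfrb and notch3 past the rule, and notch3 is itself a Notch pathway gene. The log2 ratios of abcc9 (4.44) and kcnj8 (4.10) were wider than that of sox18. Arch crest markers summed to 2381 TPM with heat-shock NICD and 4808 TPM in Gal4, and sox10-lineage and ear markers to 523 TPM with heat-shock NICD and 156 TPM in Gal4. Red-cell markers summed to 2506 TPM with heat-shock NICD and 6954 TPM in Gal4. The part of these cell types in the sox18 value was not tested.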

How the data were processed

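Cells were sorted into lysis buffer, amplified with the SMARTer kit and sequenced as paired ends on HiSeq and NextSeq machines, per the labels' protocols, which do not say which library ran on which. The authors deposited TPM per gene for all 19 libraries, and the submitters' processing notes name TopHat2, Partek and GRCz10. Each deposited column sums to about 93168, so TPM was multiplied by a constant (10.7) to sum to 1000000. No read counts are given, so depth and counting error are unknown.

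limma 3.58.1 in R 4.3.3 (trend, robust, 2-sided) was run on log2(TPM + 1), for genes averaging 1 TPM or more over a fit's libraries, with Benjamini-Hochberg adjustment over all genes. The 3 wild-type sorts formed one fit (14270 genes) and the all-arch, hand2-sorted, dlx5a-sorted and edn1 mutant libraries another (13206 genes). Fold changes on this scale understate low genes, and p-values measure the spread between these libraries, which may be technical. In the fit of the 3 wild-type sorts that spread also holds stage, since the sox10-only libraries were of 20, 28 and 36 hpf. Within the sox10-only sort, replicate number and stage cannot be told apart. Scripts were tested on simulated data.

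In the first fit, libraries of the same number deviated together (correlations 0.316 to 0.739), so the numbers pair the libraries by the data, not by a label, and the block was tried. The main tests did not use this pairing, so a gene given as not passing there may pass with the block. For all-arch minus fli1a-only, all-arch minus sox10-only and fli1a-only minus sox10-only, 30, 10 and 33 members were called with the block. Without it 26, 5 and 32 were called. Calls over all genes rose too, from 1006 to 7232, from 1915 to 2935 and from 4063 to 8548. Values of every library are given for fli1a, fli1b, the Vegf receptors and the members with the largest called changes or no call. The members and all gene lists were chosen with earlier results of these data known. 2 list genes (pgfa, hbbe1.3) were not matched. Promoter motifs and sequences were not analysed here. Alternatives tried were another pseudocount, the deposited scale, other filters, median-ratio rescaling, globins left out, each library left out, and the replicate block.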

Additional observations from a re-analysis of the deposited data

How the results depend on the processing

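No call on the members changed direction under the alternatives run. Some differences that were not called did. For sox18 in heat-shock Edn1 minus Gal4 the log2 ratio was 0.093, but -0.039 with median-ratio rescaling. For all-arch minus fli1a-only the count of members called was 26 and ranged from 20 (mean TPM of at least 5) to 31 (median-ratio rescaling), and from 23 to 29 with a library left out. For all-arch minus sox10-only it was 5, against 9 with a pseudocount of 0.1, 2 on the deposited scale, 10 with median-ratio rescaling, 9 with globins left out, 10 with the replicate block and 3 against the 36 hpf sox10-only library alone, and 4 to 6 with a library left out. For fli1a-only minus sox10-only it was 32, with a range of 25 to 33. For hand2-sorted minus all-arch it was 2, against 1 on the deposited scale (myct1a, with kdrl and gata2a lost) and 1 without a filter (kdrl), and 0 to 0 with any library left out. With median-ratio rescaling it was 2 again, but with myct1a gained and gata2a lost. With the replicate block it was 3, adding myct1a (limma adjusted p = 0.0255). Libraries of the same number correlated here too (0.335 to 0.634), but with 2 shared numbers and no label this does not settle that the numbers pair them. For dlx5a-sorted minus all-arch it was 1, against 0 on the deposited scale, 0 at a mean TPM of at least 5 and 0 to 0 with a library left out; no paired fit could be made for its unnumbered library. For edn1 mutant minus all-arch it was 0 throughout. For heat-shock Edn1 it was 2, against 1 with median-ratio rescaling and 0 on the deposited scale, and for heat-shock NICD 2, against 1 and 1, with dusp5 lost in both. On the deposited scale kdr, flt1 and stab1 also missed the threshold in all-arch minus fli1a-only (limma adjusted p = 0.059, 0.0548 and 0.0548). The block changed no other call on the members than those given, and it was also run on the pathway lists, where it added calls and removed none. The runs on the pathway lists were chosen after seeing the data. A mean of at least 5 TPM tests fewer genes, and a left-out library leaves fewer samples; the cause of the other changes was not tested.

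Depth is unknown, so the counting error of levels under 1 TPM is not known.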
